A study of Mus musculus with 2 samples.

Results

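H3K27me3 peaks narrower than 10 kb that lay at the 3' ends of genes numbered 1125, out of 19359 peaks called in mouse rib chondrocytes (5.81%), or 9.99% of the 11263 peaks for which the deposited annotation lists a gene. The members were chosen by width and position: a peak belonged to them when every gene record listed for it placed the peak either past the 3' end of the gene, with a gap of no more than 5 kb, or across that end. Because the peaks were called from the same ChIP and input libraries that give their width, pileup, fold enrichment and q value, those measures are given here as a description without a test. Of the 1125 peaks, 826 (73.4%) lay wholly past the gene end, 248 (22.0%) lay across an end, and 51 (4.53%) lay across the end of one gene and past the end of another. They were listed with 1096 gene identifiers, of which 770 carried a gene symbol, and 820 of the peaks had at least one gene with a symbol.

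The cells were primary chondrocytes of newborn CD1 mice, an outbred stock. They were wild type and untreated, were freed from rib cartilage with collagenase and stayed in serum-containing medium overnight. Chromatin was digested with enzyme and precipitated with an antibody to H3K27me3. There was 1 ChIP library of 17574613 tags and 1 input library of 17369199 tags, so no value below has a replicate, and the number of mice pooled into each library is not given in the labels used here. The antibody entry in the labels names H3K27me3 for the library titled as input and input for the library titled as ChIP. The titles were followed here. With the peak list taken as the titles give it, 82.7% of 162 homeobox genes and 0 of 20 chondrocyte matrix and marker genes had a peak. As a check of the labelled cell type, 0 of 8 chondrocyte marker genes (Col2a1, Acan, Sox9, Col9a1, Col11a1, Matn3, Comp and Hapln1) had a peak of any kind, beside 20.6% of protein-coding genes. With so few genes, this says little about the cell type.

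H3K27me3, the trimethyl form of lysine 27 of histone H3, is written by Polycomb repressive complex 2 and is bound by the chromobox proteins of Polycomb repressive complex 1. In differentiated cells it typically covers the CpG-rich starts of silent developmental regulators and can spread over whole short genes and their surroundings. The 3' end of a gene is where the transcript is cut and polyadenylated, and a peak past it lies in intergenic sequence, in a neighbouring transcript or in a longer form of the same gene.

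The rule keeps out peaks listed upstream of or over a gene start, so few members were left at a start in another annotation. In the RefSeq promoter table of the same build (GRCm38), which gives windows of 250 bases before and 50 bases after each start, a start lay under 14 of the 1112 members that could be looked up (1.26%, Wilson 95% interval 0.751 to 2.10). The share was low in the other classes away from starts too, with 2.03% of short upstream peaks, 1.94% of short peaks inside genes and 1.52% of short peaks without a gene, beside 5.91% of all peaks. The windows of 18 genes touched a member, 16 of them for long noncoding RNAs. The protein-coding exceptions were Nlgn1, a postsynaptic adhesion protein, and Nkain2, a membrane protein that interacts with the sodium pump and the gene for which that peak itself was listed. Of the 18 windows, 5 were CpG-rich (a ratio of observed to expected CpG of at least 0.6 with at least 50% G and C), or 27.8% (12.5 to 50.9), beside 33.5% of all windows in the table.

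To show this range, the 250 bases before the start of 3 noncoding RNA genes that lay entirely under a member are printed 5' to 3' on the strand of the RNA, from RefSeq, with each CG dinucleotide in capitals. A830092H15Rik (chr3:26331703-26331952, plus strand, 21 CG) lay under a 3190-bp peak that also held the start of Nlgn1. Gm32517 (chr11:21998249-21998498, plus strand, 14 CG) lay under a 7455-bp peak across the end of Otx1. Gm36134 (chr4:120262152-120262401, minus strand, 3 CG) lay under a 7912-bp peak across the end of Foxo6. The fold enrichment of the peaks over these windows was 3.23, 3.37 and 3.44 in that order, so the window with the fewest CG lay under the peak with the highest of the 3 folds.
A830092H15Rik: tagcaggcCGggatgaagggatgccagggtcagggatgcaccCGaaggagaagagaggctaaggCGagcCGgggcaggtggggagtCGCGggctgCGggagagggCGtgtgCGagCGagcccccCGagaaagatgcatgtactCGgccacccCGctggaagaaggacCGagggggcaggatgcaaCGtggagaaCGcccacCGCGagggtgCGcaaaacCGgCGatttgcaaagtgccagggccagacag
Gm32517: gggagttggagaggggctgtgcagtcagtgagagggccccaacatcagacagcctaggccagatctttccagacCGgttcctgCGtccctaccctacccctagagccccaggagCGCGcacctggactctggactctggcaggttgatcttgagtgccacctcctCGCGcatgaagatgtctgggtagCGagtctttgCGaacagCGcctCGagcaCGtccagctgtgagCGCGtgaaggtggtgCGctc
Gm36134: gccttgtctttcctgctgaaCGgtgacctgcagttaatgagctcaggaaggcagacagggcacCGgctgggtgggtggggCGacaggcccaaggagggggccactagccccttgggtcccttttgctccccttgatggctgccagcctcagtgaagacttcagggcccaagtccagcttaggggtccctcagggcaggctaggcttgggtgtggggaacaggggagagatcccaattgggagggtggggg

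The peaks past a gene end were spread nearly evenly over the reach of the annotation. Their near edge lay a median of 2390 bp past the end (95% interval of the median 2189 to 2571; quartiles 1062 and 3665; range 7 to 4986, n = 826). The first 500 bp held 12.7% of them, and each later 500-bp step held between 8.35% and 10.9%. For the 1754 short peaks that lay only upstream of genes, the same distance measured from the gene start had a median of 2020 bp (1869 to 2127), and the share per step went from 14.4% between 500 and 1000 bp to 7.18% in the last step. Within 1 kb of the gene lay 23.7% (21.0 to 26.7) of the peaks past an end and 28.2% (26.1 to 30.3) of those upstream of a start. The intervals of these shares overlapped, and the intervals of the medians did not.

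**Figure D1:**
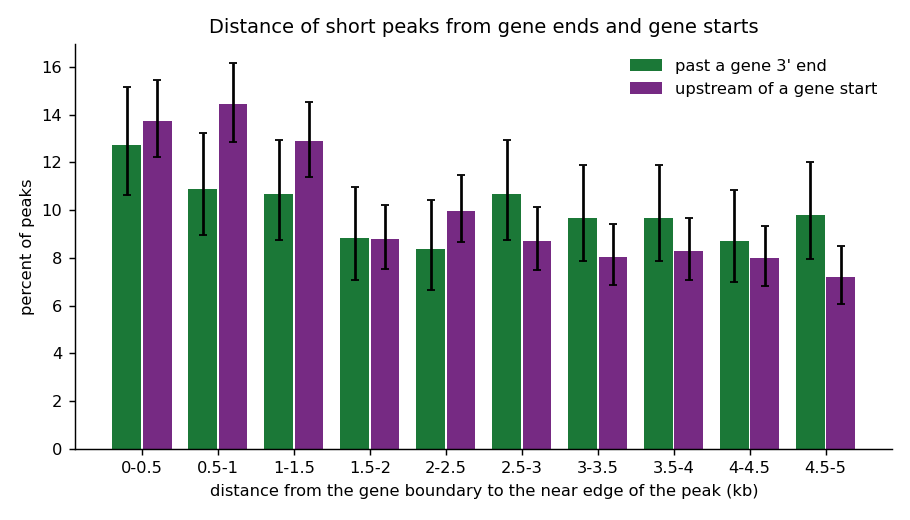
Share of short peaks in each 500-bp step of distance between the gene boundary and the near edge of the peak, for 826 peaks past a gene 3' end (green) and 1754 peaks upstream of a gene start (violet), with Wilson 95% intervals that cover counting error only. The green bars stay between 8.35% and 12.7%, whereas the violet bars go from 14.4% in the second step to 7.18% in the last.

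Where a peak crossed the gene end, somewhat more of it lay outside the gene than inside. The 299 such peaks covered a median of 978 bp of the gene and 1238 bp past it, and 167 of them (55.9%, 50.2 to 61.4) had more of their length outside than inside. The longest reaches past an end among genes with a symbol were as follows. The peak at Olfr225, an odorant receptor gene of 1.26 kb, ran 9054 bp past the end. The one at Tchh, which encodes the hair sheath protein trichohyalin, ran 8827 bp past it, and the peaks at Cldn23, a tight junction protein gene, and Adrb1, the beta-1 adrenergic receptor gene, ran 8036 and 8004 bp past. Evx2, Foxo6, Sp5 and Egr3, which are all transcription factor genes, followed with 7987, 7627, 7536 and 7286 bp.

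The members were typical of the whole peak list and differed from short peaks over gene starts and from peaks of 10 kb or more. Their width had a median of 1310 bp (interval 1249 to 1392; quartiles 776 and 2481; range 294 to 9869), beside 1270 bp for all peaks, 1316 bp for short upstream peaks, 1187 bp for short peaks inside genes and 3795 bp for short peaks over gene starts. Among members with a q value of at most 0.01 it was 2348 bp, and among those with a fold of at least 3.5 it was 2215 bp. The fold enrichment over input had a median of 3.15 (3.14 to 3.17; range 1.53 to 4.14), beside 3.16 for all peaks, 3.17 upstream, 3.15 inside, 3.28 over gene starts and 3.5 for peaks of 10 kb or more. The pileup, the depth of tags extended to fragment length that the peak caller averages over a broad peak, had a median of 11.02 (10.94 to 11.10), beside 11.04 for all peaks. It was 11.61 over gene starts and 12.61 in peaks of 10 kb or more. The q value, taken from the deposited −log10 q, is likewise a mean over the peak, here and below. A q value of at most 0.05 was reached by 683 members (60.7%, 57.8 to 63.5), beside 60.8% of all peaks, and a q value of at most 0.01 by 117 (10.4%, 8.75 to 12.3), beside 11.0% of all peaks. Both shares were near those of the whole list, while 81.4% of short peaks over gene starts reached 0.05.

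**Figure D2:**
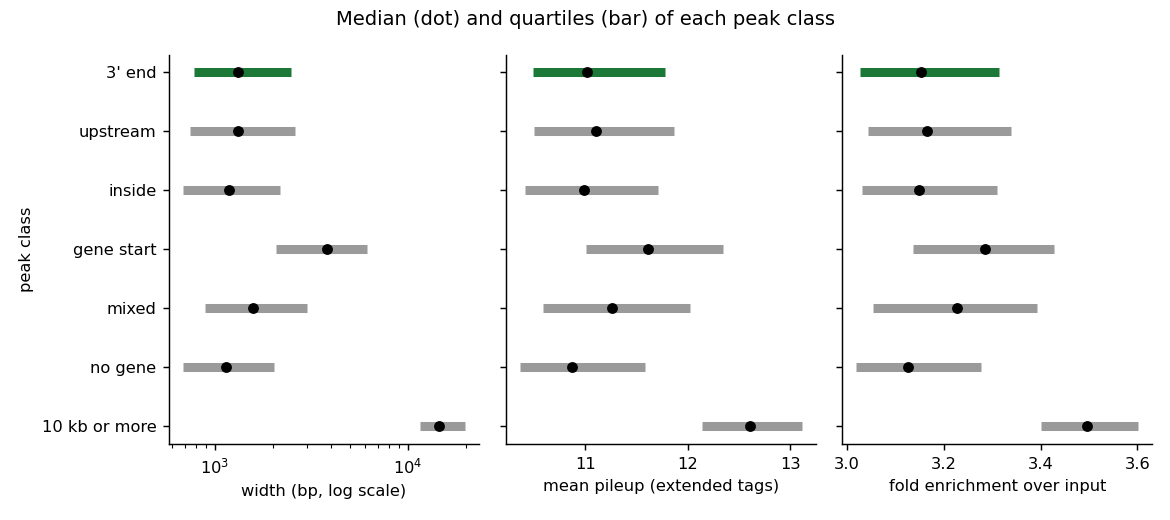
Median (dot) and quartiles (bar) of width in bp on a log scale, pileup in extended tags and fold enrichment over input for 7 classes of peaks, with the members in green. The members' medians of 1310 bp, 11.02 and 3.15 sit beside those of upstream peaks and peaks inside genes, and to the left of those of short peaks over gene starts and of peaks of 10 kb or more.

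From 500 bp upward, wider members had higher fold enrichments, and the narrowest class stood apart. The 119 peaks under 500 bp had a median fold of 3.16, and 58.0% of them had a q value of at most 0.05. The 280 peaks of 500 to 1000 bp had a median fold of 3.07, and 45.0% of them had a q value of at most 0.05. Between 1 and 2 kb these values were 3.10 and 51.1%. The 106 peaks of 5 to 10 kb had a median fold of 3.37, 97.2% reached that q value, and 66.0% of them crossed a gene end. The peaks that crossed an end had a median width of 2474 bp and a median fold of 3.23, and 74.6% (69.4 to 79.2) had a q value of at most 0.05. In the steps of 1 kb past the end, the median width stayed between 1059 and 1167 bp, the median fold between 3.11 and 3.16, and the share at that q value between 52.9% and 60.8%. Past the gene end these values differed little with distance. Position and width are not independent, since a wider interval crosses more boundaries.

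The highest fold enrichments were reached by peaks of very different width. The top value, 4.14, belonged to a 374-bp peak (chr4:34939638-34940011) 998 bp past the end of a gene without a symbol. A 294-bp peak (chr3:107464370-107464663) lay 2881 bp past the end of Slc6a17, which encodes a transporter of neutral amino acids in synaptic vesicles, with a fold of 4.03, a pileup of 13.8 and a q value of 0.00121. This is the smallest width in the peak list. An 8877-bp peak (chr19:45221670-45230546) lay 2143 bp past the end of Lbx1, a homeobox gene of migrating muscle precursors and the dorsal spinal cord, with a fold of 4.03, a pileup of 14.4 and a q value of 0.000787. Among genes with a symbol, next came a 514-bp peak 4559 bp past Rgs9bp, the membrane anchor of a photoreceptor signalling regulator (3.99-fold), and a 295-bp peak 3282 bp past Bsnd, which encodes the barttin subunit of kidney and inner ear chloride channels (3.94-fold). Peaks at Rax, an eye field homeobox gene, at Lrfn3 and Elfn1, which encode leucine-rich repeat proteins of synapses, and at Foxi3, a forkhead gene of ectodermal placodes, had folds of 3.93, 3.92, 3.92 and 3.90 and widths of 512, 1212, 327 and 9340 bp.

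The widest members included several at developmental regulators. The peak across the end of Evx2, which flanks the HoxD cluster, measured 9824 bp (chr2:74645011-74654834) with a fold of 3.83 and a pileup of 14.49. Peaks of 9705 bp at Tle3, a Groucho-type corepressor gene, 9693 bp at Tchh, 9581 bp at Dbx1, a homeobox gene of spinal interneurons, and 9481 bp at Scn8a, a neuronal sodium channel gene, came next among genes with a symbol, followed by 9340 bp at Foxi3 and 9310 bp at Rspo1. The width limit cut through a continuous range. Members just inside it measured 9824 bp (Evx2) and 9796 bp (a gene without a symbol), and the 3 narrowest peaks just over the limit measured 10253 bp (Lhx1os), 10271 bp (Tbr1) and 10386 bp (a gene without a symbol). There were 15 members between 9 and 10 kb, and 54 peaks of 10 kb or more met every other part of the rule.

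**Figure D3:**
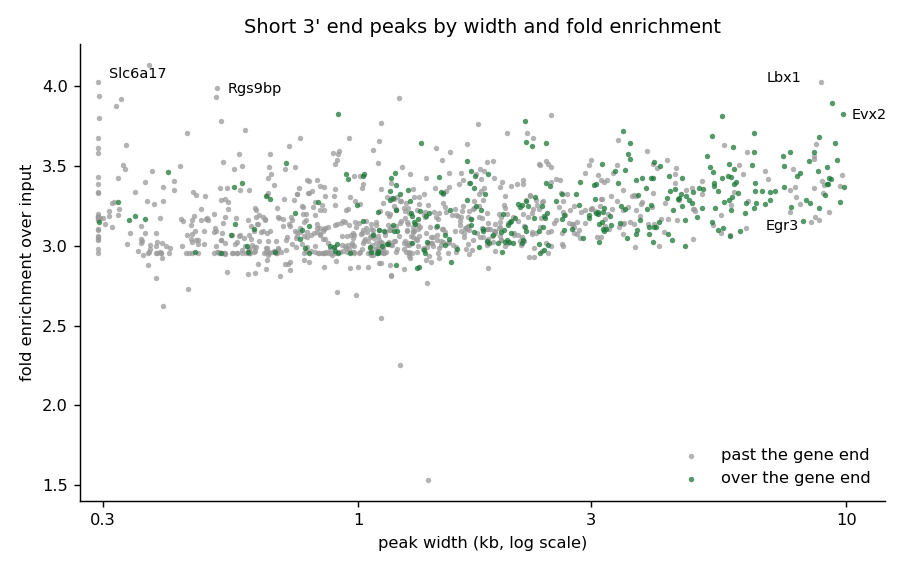
Fold enrichment over input against width in kb on a log scale for each of the 1125 members, grey for peaks past a gene end and green for peaks across one. Named points mark Slc6a17, Rgs9bp, Lbx1, Evx2 and Egr3. Green points gather at the wide end, and the lowest point, at 1.53-fold, is the peak over a ribosomal RNA related sequence.

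At the other extreme stood a few peaks with high pileup and low fold. The highest pileup, 104.24, belonged to a 1394-bp peak (chr17:39846584-39847977) that overlapped the RefSeq gene Rn18s-rs5, an 18S ribosomal RNA related sequence, and its fold was 1.53. The next, at 35.14, had a fold of 2.25. Only these 2 of 1125 members had a pileup above 20, beside 39 of all 19359 peaks, and 1121 had one under 16. Predicted genes Gm6309 and Gm6408 had peaks with pileups of 19.08 and 14.89 and folds of 2.55 and 2.63, each the only peak of its gene. Among the other named genes with high pileup, Gm10825, Olfr55, the class I histocompatibility gene H2-D1 and Sp5 had pileups of 15.3, 15.23, 15.18 and 14.45 with folds between 3.22 and 3.53. Apol11b, of the apolipoprotein L family, had 14.53 with a fold of 2.94. At the lower limit, 52 members shared the smallest pileup in the list, 9.86, with folds between 2.94 and 2.96 and a q value of 0.0988.

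Most genes with such a peak carried a further peak that was not a member. This held for 718 of the 1096 identifiers (65.5%, 62.6 to 68.3), and for 960 of the 1697 identifiers with a short upstream-only peak (56.6%, 54.2 to 58.9) when further peaks were counted in the same way. Where only peaks with a q value of at most 0.01 were kept the share was 33.6%, and at a fold of at least 3.5 it was 27.1%, with the further peaks filtered in the same way. A peak over the gene start was found at 225 genes with a 3' end peak (20.5%, 18.2 to 23.0), beside 9.90% (8.57 to 11.4) of genes with an upstream-only peak. A peak of 10 kb or more was found at 127 (11.6%, 9.83 to 13.6), beside 4.36% (3.49 to 5.44). A peak inside the gene was found at 34.5% and 38.5%, and a peak at the opposite flank at 33.4% and 21.9%. The 33.4% counts only peaks wholly upstream, whereas the 21.9% also counts peaks across the gene end. The 3' end peak was the only peak of any kind at 341 genes (31.1%, 28.4 to 33.9), beside 39.4% (37.1 to 41.7) for a lone upstream peak. Between these classes the intervals for peaks over the start, for peaks of 10 kb or more and for the opposite flank did not overlap. A peak over the start can fill part of the 5-kb upstream reach, where an upstream-only peak would be listed. The class rules can thus lower the shares of start and wide peaks in the upstream class, and by how much was not tested. Other classes lay nearer, since genes with a short peak inside had a peak of 10 kb or more in 9.61% (8.68 to 10.6) and genes with a short peak over the start had a further peak in 63.5% (61.0 to 65.9), both with intervals that overlap those above. Genes with a short peak inside had one over the start in 16.5% (15.3 to 17.8), nearer to the 20.5% than the 9.90% was. The genes themselves differed in size, with a median span of 6.33 kb for genes with a 3' end peak and 18.1 kb for genes with an upstream-only peak, and the part of gene size in these shares was not tested.

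**Figure D4:**
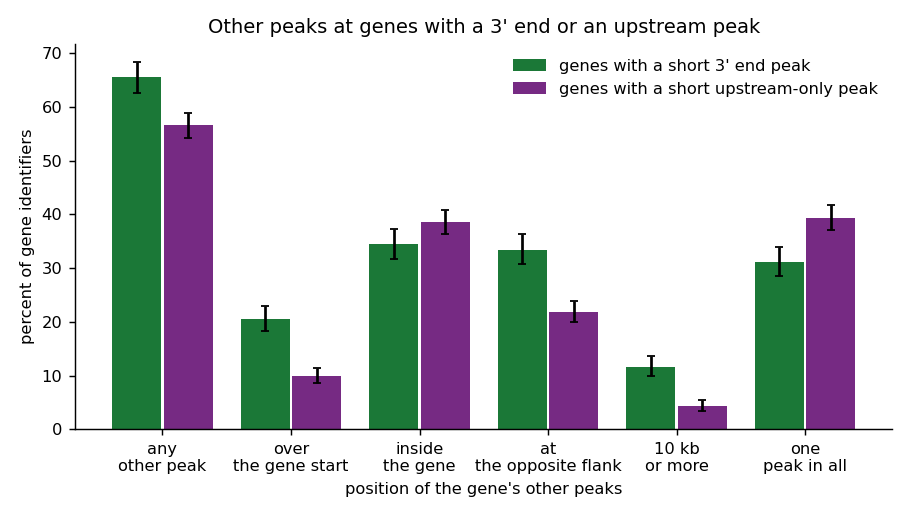
Share of gene identifiers that carry a further peak, by its position, for 1096 identifiers with a short 3' end peak (green) and 1697 with a short upstream-only peak (violet), with Wilson 95% intervals. The opposite flank is the upstream side for the green bars and the 3' side for the violet ones, where peaks across the gene end are also counted. The green bar stands at 20.5% for peaks over the gene start, where the violet bar stands at 9.90%.

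When a gene with a member also had a peak over the start, the fold was often higher in the start peak. Start peaks of any width were counted, also those that covered the whole gene, whose number was not computed. Among the 225 identifiers with a peak over the start, the start peak had the higher fold in 164 (72.9%, 66.7 to 78.3) and the higher pileup in 157 (69.8%). The median fold was 3.40 in the start peaks and 3.20 in the members. Both comparisons set members under 10 kb beside start peaks with no such limit, and the fold was higher in wider peaks. Among the 140 identifiers whose start peak was also under 10 kb, the start peak had the higher fold in 65.7% (57.5 to 73.1) and the higher pileup in 63.6%, with median folds of 3.30 and 3.20. The widths of all 225 pairs, with medians of 7215 and 1771 bp, differ in part through the rule, which limits members but not start peaks to less than 10 kb. In 85 of the 225 the start peak was 10 kb wide or more, and it had to be the wider of the pair, as at Lbx1, where a 23117-bp peak with a fold of 3.62 spanned the whole gene, at Evx2 (48507 bp, 3.76-fold), and at Neurod2, a neuronal basic helix-loop-helix gene (12638 bp, 3.59-fold). At Lbx1 and Evx2 the order was the reverse, with the higher fold in the member (4.03 and 3.83). The start peak of Lbx1 also covered the 3' end and ran 903 bp past it. At Neurod2 the member had a fold of 3.54.

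Members were about as near to another peak as short peaks upstream of genes or over gene starts. The nearest other peak was a median of 2481 bp away (2280 to 2782). With only peaks at a q value of at most 0.01 or a fold of at least 3.5 kept, neighbours included, it was 19191 and 41200 bp. In the full list 68.7% (65.9 to 71.4) of members had another peak within 5 kb, beside 65.3% (64.7 to 66.0) of all peaks, 68.7% of short upstream peaks and 67.8% of short peaks over gene starts. For the 1006 members with 1 gene record, another peak lay within 5 kb on the side of the gene in 49.5% (46.4 to 52.6), on the far side in 41.4% (38.3 to 44.4), on both sides in 22.7% and on neither in 31.8%. A neighbour was thus more often on the side of the gene. Members at genes with a peak over the start had another peak within 5 kb in 88.6% (84.1 to 92.0), a median width of 1593 bp and a median fold of 3.17. Members at genes without any further peak had one in 39.0% (34.1 to 44.2), a median width of 1126 bp and a median fold of 3.11, and 52.2% (47.1 to 57.4) of them had a q value of at most 0.05, beside 65.1% (59.1 to 70.7) where the start was covered. The 88.6% and 39.0% in part restate the grouping, which was made by the further peaks of the gene.

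A gene could also carry several members. There were 947 identifiers with 1, 145 with 2 and 4 with 3. The 4 were Prss29, a serine protease gene of the uterine gland, Gad1os, which is transcribed opposite Gad1, Xkr7, of the XK-related family, and Bsnd. The peaks at Bsnd began 1219, 3282 and 4986 bp past the end, with folds of 2.96, 3.94 and 3.34, and no other peak was listed for the gene. The 3 peaks past the deposited end of Xkr7 (3.09-, 3.35- and 3.17-fold) lay inside the gene as RefSeq places it. The widest of the 3 at Gad1os, 8394 bp, was also the peak across the end of Sp5, a transcription factor gene that responds to Wnt signals.

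**Figure D5:**
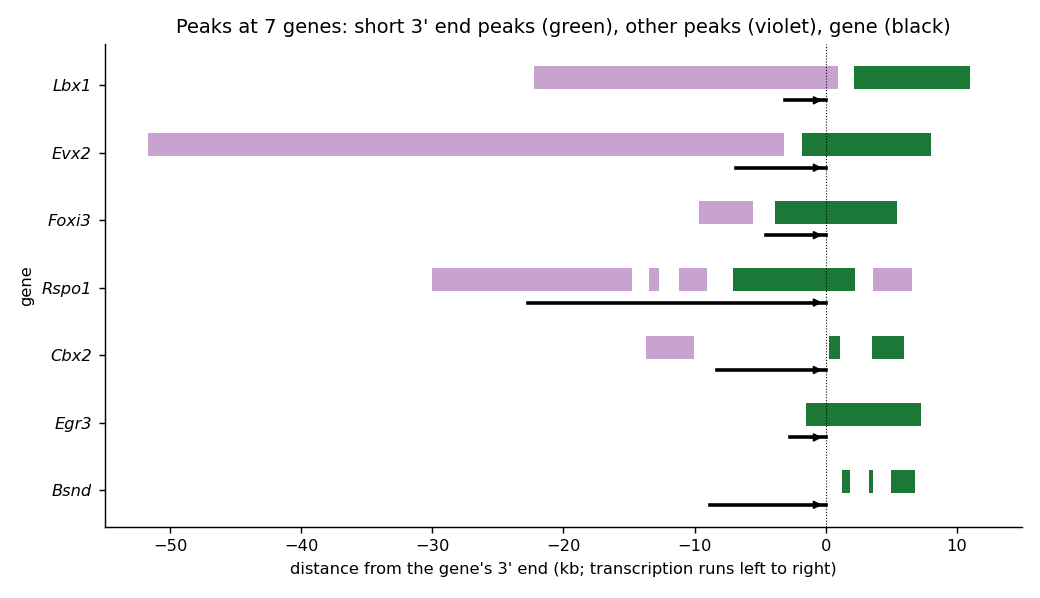
Peaks at 7 genes placed by distance from the gene's 3' end in kb, with transcription from left to right, the gene as a black arrow, members in green and other peaks in violet. At Lbx1 and Evx2 a peak of 10 kb or more covers the start and a member follows it, at Egr3 one member of 8803 bp crosses the end and is the only peak, and at Bsnd 3 members lie past the end.

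Among genes with a symbol whose only peaks were members, those with the lowest q values were Bsnd, Rapgef1, a guanine nucleotide exchange factor for Rap1 (911 bp, 3.83-fold), C3, the central complement component (295 bp, 3.80-fold), Krtap5-2, a keratin-associated protein (3490 bp, 3.72-fold), Slc43a1, an amino acid transporter (1114 bp, 3.77-fold), Xrn2, the nuclear exonuclease of transcription termination (2281 bp, 3.67-fold), Gm15348 (1758 bp, 3.76-fold) and Llph (1673 bp, 3.64-fold). Both peaks listed for Xrn2 lay between the converging genes Xrn2 and Nkx2-4, a homeobox gene that also had an 8005-bp peak upstream. Egr3, an immediate-early zinc finger gene, had an 8803-bp member (3.24-fold) as its only peak. A peak of 4350 bp (3.34-fold) was listed for Slc45a2, a melanosome transporter, and lay across the end of Rxfp3, a relaxin-3 receptor gene. It was the only peak of both.

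Some members lay between genes that end toward each other. Of the 119 members with more than 1 gene record, 84 (70.6%, 61.9 to 78.0) had genes on both strands, which end toward each other. The rule itself favours such pairs, since a peak listed upstream of or over the start of any gene is not a member, and no share to compare with was computed. Cbx2 and Cbx8, chromobox subunits of Polycomb repressive complex 1, ended toward each other with 2 members between them. One of 894 bp (chr11:119031496-119032389, 3.31-fold) began 226 bp past the end of Cbx2, and one of 2429 bp (chr11:119034819-119037247, 3.65-fold) crossed the end of Cbx8. Neither gene had a peak over its start or inside, and both had peaks upstream, of 3619 bp at Cbx2 and of 1786 and 6405 bp at Cbx8. Bmi1, a ring finger partner in the same complex, had members of 2842 bp (3.40-fold) across its end and 399 bp (3.28-fold) past it. These were 3 of the list of 27 Polycomb genes, and 33.3% (12.1 to 64.6) of the 9 with any peak, an interval that includes the 15.6% of protein-coding genes with a peak that had a member.

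Transcription factor genes had members more often than protein-coding genes at large, and they also had peaks of any kind more often. Of 162 homeobox genes 21 (13.0%) had a member, and of 138 other developmental transcription factor genes 24 (17.4%), beside 3.20% of all 21896 protein-coding genes. Among genes with any peak, however, the share was 21 of 134 (15.7%, 10.5 to 22.8) for homeobox genes and 24 of 93 (25.8%, 18 to 35.5) for the others, beside 15.6% (14.5 to 16.6) of protein-coding genes. The share of homeobox genes with any peak that had a member was thus near the background. Genes were put on the lists by symbol, so the homeobox gene Lbx1 was counted with the other transcription factors and Rax was on neither list. The 26 peaks at homeobox genes had a median width of 3206 bp and a median fold of 3.34, and 22 of them had a q value of at most 0.05 (84.6%, 66.5 to 93.9). For the 26 peaks at the other transcription factor genes these values were 2491 bp, 3.27 and 73.1% (53.9 to 86.3). No homeobox gene had a member as its only peak, and 10 of the 21 also had a peak over the start.

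Irx1, Otx1 and Dlx3 had 2 members each. Irx1, of limb and neural patterning, had a 5563-bp peak across its end (3.81-fold) and an 8934-bp peak 1518 bp past it (3.41-fold). Otx1, a forebrain patterning gene, had a 7455-bp peak across its end (3.37-fold), listed also as past the end of Ehbp1, which lies upstream on the same strand, and an 8663-bp peak 2673 bp past it (3.64-fold). Dlx3, of placenta and hair, had peaks of 4956 bp (3.18-fold) and 1539 bp (3.45-fold). Nkx2-2, of the ventral neural tube and pancreas, had 1 of 3905 bp (3.60-fold). Among the other transcription factors, Eomes, of mesoderm and T cells, had an 8775-bp peak across its end (3.68-fold), Gata2, of blood stem cells, one of 661 bp 1734 bp past the end (3.58-fold), Foxe3, of the lens, one of 2362 bp (3.51-fold), and Neurod2 one of 8569 bp.

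Genes of growth factor pathways had members at ligands of several families. Of 53 Wnt pathway genes 9 had a member, or 29.0% (16.1 to 46.6) of the 31 with any peak, beside 3.20% of protein-coding genes and 15.6% (14.5 to 16.6) of those with any peak. They were the ligands Wnt3a, Wnt7a, Wnt8a, Wnt9a, Wnt10a, Wnt10b and Wnt16, the agonist Rspo1 and the secreted antagonist Sfrp5. At Wnt10b a 5614-bp peak crossed the end (3.27-fold), at Wnt10a a 4250-bp peak lay 4599 bp past it (3.27-fold) beyond a 32593-bp peak that covered the gene, and at Wnt3a a 1439-bp peak lay 2085 bp past it (3.36-fold). Sfrp5 had a 2836-bp peak across its end (3.25-fold), Wnt7a a 1252-bp peak (3.27-fold) and Wnt16 a 1296-bp peak (3.09-fold). Wnt8a, which acts in the early embryo, had a 7134-bp member (3.34-fold) as its only peak. Of 35 fibroblast growth factor and hedgehog genes 4 had members (11.4%), or 4 of the 20 with any peak (interval 8.07% to 41.6%). They were the ligand genes Fgf3, Fgf4, Fgf5 and Fgf23. Fgf3 had peaks of 5457 and 8043 bp (3.34- and 3.26-fold) while Fgf4 had peaks of 4337 and 649 bp (3.44- and 2.86-fold). Of 37 genes of the transforming growth factor and bone morphogenetic protein pathways 3 had members (8.11%), or 30.0% (10.8 to 60.3) of the 10 with any peak, with peaks of 2229 and 3497 bp at Gdf6 (3.25- and 3.14-fold), 3599 bp at Gdf7 (3.15-fold) and 1703 bp at Inhbb (3.47-fold). The last 2 intervals include the share among all protein-coding genes with a peak, and that of the Wnt list overlaps its interval.

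Lists of cartilage and bone genes held few members, as did protein-coding genes at large, of which 3.20% had one. Of 20 chondrocyte matrix and marker genes 0 had a member (0% to 16.1%), and 0 had a peak of any kind. Of 19 genes of hypertrophy and bone formation 2 had one (10.5%, 2.94 to 31.4), or 28.6% (8.22 to 64.1) of the 7 with any peak, an interval that includes the 15.6% of protein-coding genes with a peak. At Dlx5, a homeobox gene that promotes osteoblast differentiation, a 3358-bp peak crossed the end (3.47-fold). At Alpl, the bone alkaline phosphatase gene, a 1260-bp peak began 65 bp past the end (3.09-fold, q value 0.0555), and a 5997-bp peak covered the start (3.14-fold). Of 9 cell cycle inhibitor genes and 210 housekeeping genes of the ribosome, proteasome and respiratory chain 0 had a member. The interval for 0 of 9 reaches 29.9%, and that for 0 of 210 reaches 1.80%, below the 3.20% of protein-coding genes. Only 2 of the 9 and 19 of the 210 had a peak elsewhere. The intervals for 0 of 2 and 0 of 19 reach 65.8% and 16.8% and so include the 15.6% of protein-coding genes with a peak.

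Neural and transport genes that had any peak had members at shares whose intervals include the background. Over all genes, the shares of neurotransmitter receptor and channel genes lay above the 3.20% of all protein-coding genes. Those genes also had any peak more often, at 61.7% and 64.3%, beside 20.6% of protein-coding genes. Among genes with any peak, a member was found at 20.7% (12.3 to 32.8) of 58 neurotransmitter receptor genes, 10.8% (5.81 to 19.3) of 83 channel genes, 17.3% (11.1 to 26.0) of 98 solute carriers, 1 of 23 cadherin and protocadherin genes (4.35%, 0.772 to 21.0) and 9.86% (4.86 to 19.0) of 71 Zfp genes, beside 15.6% of protein-coding genes. Of all 94 neurotransmitter receptor genes 12 had a member (12.8%, 7.46 to 21.0), beside 3.20% of protein-coding genes. The 12 included the adrenergic receptor genes Adrb1 (9138 bp, 3.49-fold), Adra2b (5878 bp, 3.39-fold), Adra2c (2885 bp, 3.05-fold) and Adrb3 (1344 bp, 3.64-fold), all across the gene end. At Drd4, a dopamine receptor gene, a 340-bp member (3.16-fold) was the only peak. Of 129 genes of potassium, calcium and sodium channels 9 had members (6.98%, 3.71 to 12.7), with the widest at Scn8a (9481 bp, 3.64-fold) and another at Kcnk10 (1098 bp, 3.22-fold). Solute carriers had members at 17 of 369 genes (4.61%, 2.90 to 7.25), including 3161 bp across the ends of both Slc16a11 and Slc16a13 (3.51-fold), monocarboxylate transporter genes that lie side by side. Of 108 cadherin and protocadherin genes only Pcdh8 had a member (0.926%, 0.164 to 5.06), of 5266 bp (3.49-fold). Of 424 Zfp zinc finger genes 7 did (1.65%, 0.802 to 3.37), of which Zfp663 had the highest fold (3.66).

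Chemosensory receptor genes seldom had a peak, and where they had one it was often a member. Of 1501 olfactory, vomeronasal and taste receptor genes 65 (4.33%) had any peak, beside 20.6% of protein-coding genes. Yet 35 of those 65 (53.8%, 41.9 to 65.4) had a member, beside 15.6% of protein-coding genes with a peak. Over all 1501 genes the share was 2.33% (1.68 to 3.23), beside 3.20% of protein-coding genes. The part of gene size in these shares was not tested. Among the examples below, Olfr521, Olfr1339 and Olfr225 spanned 0.966, 0.947 and 1.26 kb, and Olfr1414 spanned 7.47 kb. For 21 of the 35 the members were the only peaks. Their 40 peaks had a median width of 1076 bp and a median fold of 3.12, and 22 (55.0%, 39.8 to 69.3) had a q value of at most 0.05. Single examples ranged from a 294-bp peak past Olfr521 (3.61-fold) over a 6247-bp peak past Olfr1339 (3.59-fold) to the 9149-bp peak at Olfr225 (3.38-fold) and the 9200-bp peak 2381 bp past Olfr1414 (3.21-fold). These receptors have near-identical copies, and how tags that map to several copies were treated is not given in the sources used here.

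MicroRNA genes had a member at 9 of 1169 genes (0.770%), and at 15.5% (8.38 to 26.9) of the 58 with any peak, which is near the 15.6% of protein-coding genes with a peak. A peak that covers a whole hairpin is not a member under the rule, so the hairpins themselves lay outside these peaks. At Mir203, of skin differentiation, a 4478-bp peak (chr12:112131525-112136002) began 570 bp past the hairpin, with a fold of 3.49 and a q value of 0.0106, and was the only peak of that gene. At Mir129-1 a 2683-bp peak lay 2976 bp past it (3.33-fold), and at Mir7-2, expressed in endocrine cells, a 958-bp peak lay 1078 bp past it (3.13-fold). Both also had peaks upstream, of 530 and 551 bp at Mir129-1 and of 12654 bp at Mir7-2. Mir124a-2 and Mir124a-3, of neurons, had peaks of 2024 and 1379 bp (3.14- and 2.91-fold) and each also had a peak over the hairpin. Mature sequences were in the RefSeq table for 6 of the 9 genes. For each of the best-supported 3, 1 mature sequence is printed with the seed, bases 2 to 8, in capitals. Mir203 and Mir7-2 each have a second one that is not printed. The printed seeds differ from one another.
mmu-miR-203-3p: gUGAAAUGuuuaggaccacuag
mmu-miR-129-5p: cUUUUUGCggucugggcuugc
mmu-miR-7a-5p: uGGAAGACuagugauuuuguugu

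The genes with members had CpG-poor starts more often than protein-coding genes at large. Of 542 protein-coding genes with a promoter window, 195 (36.0%, 32.0 to 40.1) were CpG-rich, beside 48.3% (47.6 to 49.1) of all 17491 such genes, 58.9% (55.9 to 62.0) of genes with a short upstream-only peak and 45.3% (41.8 to 48.8) of genes with a short peak over the start. Without the chemosensory receptors the values were 37.9% (33.8 to 42.2) of 514 genes and 52.2% (51.4 to 53.0) of all. Among genes with members the share was 40.2% (31.6 to 49.4) where a peak also covered the start and 31.9% (25.2 to 39.4) where there was no other peak, with overlapping intervals.

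The position of the gene end was checked against RefSeq. Of 770 identifiers with a symbol 768 were matched on the same chromosome, and for 627 (81.6%) the deposited and RefSeq ends lay within 100 bp. RefSeq placed the end more than 1 kb further out for 51 and more than 1 kb further in for 22. Of 819 members with a matched gene 802 (97.9%) had the RefSeq end under the peak or within 5 kb. Among the 826 peaks past an end, 656 (79.4%, 76.5 to 82.0) overlapped no RefSeq gene, 103 (12.5%) overlapped a long noncoding RNA gene and 58 (7.02%) a protein-coding gene. In 34 of these 58 it was the gene the peak was listed for, in a longer form, as at Foxe3, Fgf23 and Xkr7. In 7 it was a gene of another name, such as Ldah beside Gdf7. In the remaining 17 the listed gene could not be matched by symbol, and in 7 of these the overlapped gene was named in the annotation for a record of its own. For the other 10 the same gene in a longer form cannot be told apart from another gene.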

How the data were processed

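H3K27me3 ChIP-seq of mouse rib chondrocytes comprised 1 ChIP and 1 input library, grouped by title. Per the submitters' processing notes, reads were handled with CASAVA 1.8.4, Bowtie2 and MACS2 on build mm10. Per the file headers, the authors called broad peaks with MACS 2.1.0.20140616 on 17237574 ChIP and 17004082 input tags left after filtering, at a q cutoff of 0.05 and a fragment length of 294 bp. The deposited −log10 q values, which are means over each peak, correspond to q of up to 0.0991, above that cutoff. Whether a separate cutoff was set for broad regions is not given in the sources used here. The deposited pileup is a signal in extended tags, the deposited fold enrichment is a ratio of ChIP to input, and a second deposited table pairs each peak with genes whose boundary lies within 5 kb. All 19359 peaks had equal values in both tables.

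Peaks were classed from the deposited gene records. With 1 library per group no test across conditions could be made. Shares have Wilson 95% intervals and medians have order-statistic 95% intervals, which cover counting error only and treat neighbouring peaks as independent, although peaks can share a gene. Genes with a symbol were named by fixed ranks: the 8 highest folds, widths, pileups and reaches, the 5 genes with the most members, the 8 genes whose only peaks were members with the lowest q values, up to 8 per gene list, and the 3 peaks on each side of the width limit. Peaks outside these ranks, among them those of greatest pileup or fold at genes without a symbol, were chosen after their values were seen. A few genes that these ranks select are not reported here. The members and the 17 gene lists were chosen with earlier results of these data known. RefSeq tables of GRCm38.p6 gave gene ends, promoters and microRNAs, and the promoter table holds no window on 1 chromosome, so 1112 members could be looked up. Scripts used Python 3.11.15, pandas 2.3.3, numpy 2.4.6 and scipy 1.17.1 and were tested on simulated peaks. The alternatives were stricter peak thresholds, a 5-kb width limit, a looser position rule, genes with a symbol and a 2-kb reach. Another kept only members whose matched gene had its RefSeq end under the peak or within 5 kb.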

Additional observations from a re-analysis of the deposited data

How the results depend on the processing

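No paired analysis was possible because there was only 1 ChIP and 1 input library. The number of members, 1125, was 683 at a q of at most 0.05, 117 at 0.01, 94 at a fold of at least 3.5 and 2255 when any gene record at a 3' end sufficed, and stayed within 1.5 times of 1125 under the other 4 alternatives. In the same order (q 0.05, q 0.01, fold 3.5, any record), the median width was 1744, 2348, 2215 and 1491 bp, the median pileup 11.53, 12.94, 12.82 and 11.17, the median fold 3.27, 3.58, 3.61 and 3.18, and the share of genes with another peak 59.1%, 33.6%, 27.1% and 51.3%. The share near a gene start (within 1 kb, 5.67% in the main rule) was 7.70%, 8.62%, 7.53% and 15.8%. The gap to the next peak was 2820, 19191 and 41200 bp under the 3 stricter thresholds, which also remove the neighbours counted. The distance past the end was 2670 bp at a fold of at least 3.5. A width limit of 5 kb gave a width of 1198 bp, a pileup of 10.92, a fold of 3.13 and 4.27% near a start. A reach of 2 kb gave a distance of 971 bp, a width of 1602 bp, a pileup of 11.11, a fold of 3.17, a gap of 3267 bp, 61.7% with another peak and 7.34% near a start. Genes with a symbol alone gave a width of 1462 bp, a pileup of 11.11 and 70.0% with another peak. The 802 members whose matched gene had its RefSeq end under the peak or within 5 kb gave 1405 bp and 69.4%. Distances were still measured there from the deposited ends, and the members left out counted as other peaks. The other values stayed inside the 95% interval of the main value. The removal of chemosensory genes and the limit of start peaks to under 10 kb were chosen after seeing the data. The share of start peaks with the higher fold was 65.7% under that limit, beside 72.9%. With 1 library per group, no value has a replicate error.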

Other observations

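The smallest gap between any 2 neighbouring peaks in the list was 1177 bp, 1 bp above 4 times the fragment length of 294 bp, so a member and a neighbour nearer than that would appear as 1 peak. Over the chromosomes, the share of peaks that were members went from 3.24% (13 of 401) on chromosome 18 to 10.9% (15 of 138) on chromosome X, beside 5.81% of all peaks.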
